A study of Mus musculus with 22 samples.

Results

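The genes described here are 10 liver enzymes of ammonia disposal and of periportal amino acid breakdown: Cps1, Otc, Ass1, Asl, Arg1, Nags, Gls2, Hal, Sds and Etnppl. They were chosen by symbol for their known roles, with earlier results of these data known. Each was found once among the 24197 genes of the authors' deposited table. RNA was taken from nuclei isolated from the livers of CD-1 (ICR) mice aged 7 weeks, in 22 libraries, each made from a pool of livers. In males and, as a separate set, in females, TCPOBOP, a synthetic agonist of the nuclear receptor CAR, was given at 3 mg/kg and livers were taken after 3 h and after 27 h. At each time and in each sex the TCPOBOP group and its own vehicle group had 2 pools each, made from 4 livers per pool at 3 h (8 mice per group) and 3 livers per pool at 27 h (6 mice per group). PCN, a synthetic steroid that activates the nuclear receptor PXR in rodents, was given to males at 50 mg/kg for 3 h, with 3 pools of 4 livers (12 mice) in the PCN group and as many in a vehicle group of its own. Every vehicle group received 1% DMSO in corn oil, and the labels name no genetic change. The 10 groups thus form 5 comparisons that share no vehicle pool.

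The urea cycle turns toxic ammonia into urea and is most active in the hepatocytes around the portal vein. In mitochondria Cps1 makes carbamoyl phosphate from ammonia, an enzyme that stays idle without the N-acetylglutamate made by Nags, and Otc joins carbamoyl phosphate to ornithine to form citrulline. In the cytosol Ass1 adds aspartate to citrulline, Asl splits the product into arginine and fumarate, and Arg1 cleaves arginine to urea and ornithine. Gls2 (liver glutaminase), Hal (histidine ammonia-lyase), Sds (serine dehydratase) and Etnppl (ethanolamine-phosphate phospho-lyase) each release ammonia from a small nitrogen compound. Periportal hepatocytes are known for this breakdown, while the hepatocytes next to the central vein capture leftover ammonia as glutamine with Glul.

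All levels below are authors' means over the pools of a group in FPKM, a fragment count scaled to gene length and library size, and all ratios are treated over vehicle from the authors' deposited table. A call, raised or lowered, needed an adjusted p of the authors below 0.05. The table has no value per pool, so no spread between pools can be given, whether the pools of treated and vehicle groups overlapped is unknown, and differences between the sexes, the times or the agents were not tested. Where nothing says that pools were prepared as separate experiments, the authors' p-values measure the spread between these pools. The steps of low FPKM values put the depth of the TCPOBOP pools near 25400000 to 46700000 fragments and that of the PCN set near 19000000 to 31900000. A single read in 1 kb was then worth at most 0.0394 FPKM in the TCPOBOP set and 0.0525 FPKM in the PCN set, and every mean of the 10 genes was at least 1.07 FPKM. The sex labels fitted the data: Xist averaged 122 to 178 FPKM in the 4 female groups and at most 0.118 FPKM in the 6 male groups. Cyp2b10 and Cyp3a11, classical targets of CAR and PXR, were called raised in all 5 comparisons, and Alb, which encodes albumin, averaged 333 to 972 FPKM in female groups and 567 to 1148 FPKM in male groups.

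The 10 genes lie on separate stretches of the genome, given here in mouse build mm9. The urea cycle genes were Cps1 at chr1:67169601-67277841, Otc at chrX:9829485-9898150, Ass1 at chr2:31325790-31376190, Asl at chr5:130487373-130500201 and Arg1 at chr10:24635013-24647276. Nags lies at chr11:102006827-102010842. Of the ammonia-releasing enzymes, Gls2 lies at chr10:127631691-127647060, Hal at chr10:92951513-92979488, Sds at chr5:120926556-120933914 and Etnppl at chr3:130320366-130338668, with a second start 127 bases further in. Reads were counted over the whole gene body, per the legend of the authors' deposited table, so that in nuclear RNA these levels take in unspliced transcripts as well.

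The 10 genes differed widely in level, with the same 3 genes lowest in every group. FPKM is scaled to gene length, but the length used for each gene is not given in the sources used here. The order of different genes below is that of the deposited values. It rests on that length and on counting over the whole gene body, and may not be the order of their transcript levels. Arg1 was the highest of the 10 in 7 of the 10 groups, from 77.1 FPKM in the PCN vehicle group to 161 FPKM in TCPOBOP females at 3 h, and Sds was the highest in the other 3, all at 27 h. Otc, Nags and Etnppl held the last 3 places in every group, with levels of 8.36 to 20.5 FPKM for Otc, 7.81 to 13.2 FPKM for Nags and 1.07 to 9.84 FPKM for Etnppl. With no values per pool, it cannot be said which neighbours in this order differ beyond their spread. Over the 8 groups of the TCPOBOP set, Etnppl varied most, with its highest mean 9.21 times its lowest, and Gls2 followed at 4.75 times, Sds at 3.87, Asl at 3.11 and Ass1 at 3.07. The other 5 stayed within 1.95 times, among them Cps1 at 1.87 and Nags at 1.55. In 7 of the 10 genes (Ass1, Asl, Nags, Gls2, Hal, Sds and Etnppl) the highest of these 8 means was that of vehicle females at 27 h. For Nags it was 13.2 FPKM, against 12.7 FPKM in TCPOBOP females at 27 h. That vehicle group also had the highest summed FPKM of all genes, 132094 against at most 124333 in the other groups. The share of all genes with their highest mean there was not counted, so this cannot be read as particular to the 10 genes. These are whole-liver nuclei, in which fewer cells of a type and less RNA per cell cannot be told apart.

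**Figure D1:**
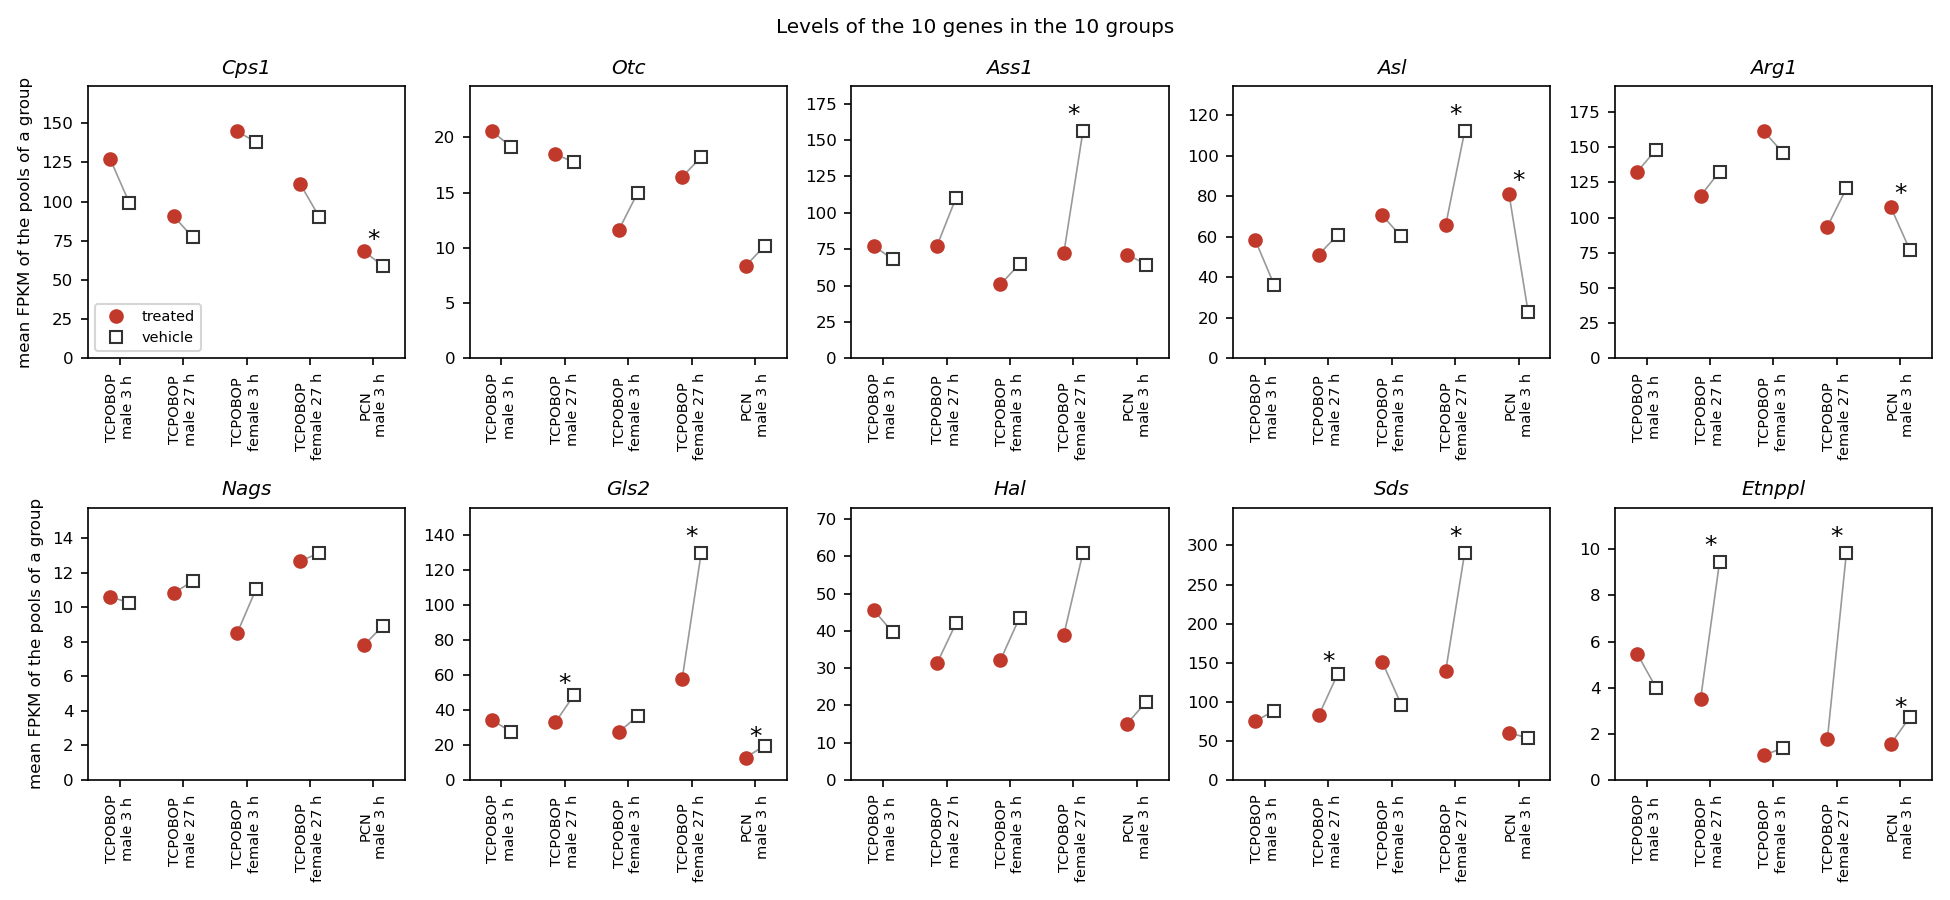
Mean FPKM of each of the 10 genes (vertical axis, starting at 0, a separate scale per gene) in the treated (filled circles) and vehicle groups (open squares) of the 5 comparisons, with an asterisk where the authors' adjusted p was below 0.05. The vehicle squares of females at 27 h stand at 129.9 FPKM for Gls2 and 290.5 FPKM for Sds, above every other group of those genes.

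At 3 h after TCPOBOP 0 of the 10 genes were called in males and 0 in females. Calls were few over all genes at 1 FPKM or more in at least 1 of both groups: in males 1.33% were raised and 0.505% lowered, and in females 2.67% were raised and 1.84% lowered. The widest values were those of Asl in males, at 58.2 FPKM after TCPOBOP and 36.0 FPKM after vehicle (log2 ratio 0.68, adjusted p = 0.185, edgeR per the authors' deposited table), and of Sds in females, at 151 FPKM after TCPOBOP and 96.4 FPKM after vehicle (log2 ratio 0.71, adjusted p = 0.180). Neither met the threshold. The genes that were called at 27 h had these means at 3 h. Etnppl had 5.47 FPKM after TCPOBOP and 3.99 FPKM after vehicle in males, and 1.07 FPKM after TCPOBOP and 1.38 FPKM after vehicle in females. Gls2 had 34.2 FPKM after TCPOBOP and 27.6 FPKM after vehicle in males, and 27.3 FPKM after TCPOBOP and 36.6 FPKM after vehicle in females. Both genes thus had the higher mean after TCPOBOP in males and the lower in females, without a call. Ass1 had 77.4 FPKM after TCPOBOP and 67.96 FPKM after vehicle in males, and 50.8 FPKM after TCPOBOP and 64.8 FPKM after vehicle in females, and Sds had 75.1 FPKM after TCPOBOP and 88.7 FPKM after vehicle in males. Cps1 and Arg1, at the entry and the exit of the cycle, averaged 145 and 161 FPKM after TCPOBOP and 138 and 146 FPKM after vehicle in females, and in males 127 FPKM after TCPOBOP and 99.4 FPKM after vehicle for Cps1 and 132.5 FPKM after TCPOBOP and 148 FPKM after vehicle for Arg1. The median log2 ratio of the 10 genes was 0.18 in males, against 0.00044 over all genes at 1 FPKM or more, and -0.30 in females, against -0.02. Their summed level was 587 FPKM after TCPOBOP and 541 FPKM after vehicle in males, and 659 FPKM after TCPOBOP and 613 FPKM after vehicle in females.

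At 27 h TCPOBOP lowered 3 of the 10 genes in males and 5 in females, and raised 0 in either sex. The background was 7.61% of genes at 1 FPKM or more lowered and 8.71% raised in males, and 6.01% lowered and 6.98% raised in females. Well-expressed genes were called more often: among genes at 10 FPKM or more, a level chosen after the values were seen and met by 9 of the 10 genes, 13.8% were lowered in males and 12.2% in females. The median log2 ratio of the 10 genes was -0.28 in males, against -0.01 over all genes at 1 FPKM or more, and -0.64 in females, against -0.0045. Their summed level was 514 FPKM after TCPOBOP and 647 FPKM after vehicle in males, and 609 FPKM after TCPOBOP and 1001 FPKM after vehicle in females, which is 0.507% and 0.758% of the summed FPKM of all genes in these female groups. Of the 8 falls called at 27 h, 6 turned above 0 when the TCPOBOP livers were set against the vehicle livers of 3 h. The share that turned among all genes called lowered was not counted, so this cannot be read as particular to the 10 genes. Less the median, 13.9% of genes at 1 FPKM or more differed at least 2-fold between the female vehicle groups of both times. In males 2.76% did.

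Gls2, Sds and Etnppl, which release ammonia from glutamine, serine and phosphoethanolamine, were lowered at 27 h in both sexes. Etnppl averaged 3.49 FPKM in TCPOBOP males and 9.45 FPKM in vehicle males at 27 h, 2.61-fold lower (adjusted p = 1.71e-14 in the authors' deposited table). In females at 27 h it averaged 1.76 FPKM after TCPOBOP and 9.84 FPKM after vehicle, 5.40-fold lower (adjusted p = 6.71e-16). This was the widest fall among the 10 genes in each sex. Gls2 averaged 32.9 FPKM in TCPOBOP males and 48.8 FPKM in vehicle males, 1.43-fold lower (adjusted p = 0.00541), which is no call where a fold of at least 1.5 is asked for, and 57.8 FPKM in TCPOBOP females and 129.9 FPKM in vehicle females, 2.15-fold lower (adjusted p = 0.000190), in the authors' deposited table. Sds averaged 82.6 FPKM in TCPOBOP males and 136 FPKM in vehicle males, 1.59-fold lower (adjusted p = 0.0302), and 139 FPKM in TCPOBOP females and 290.5 FPKM in vehicle females, 2.00-fold lower (adjusted p = 0.000971). Hal, which opens the breakdown of histidine, had lower means after TCPOBOP in both sexes without a call: 31.3 FPKM after TCPOBOP and 42.1 FPKM after vehicle in males (adjusted p = 0.239), and 39.0 FPKM after TCPOBOP and 60.9 FPKM after vehicle in females (adjusted p = 0.119).

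Of the urea cycle itself, Ass1 and Asl, the pair of enzymes that build arginine from citrulline, were called lowered in females at 27 h. Ass1 averaged 72.6 FPKM after TCPOBOP and 156 FPKM after vehicle there, a log2 ratio of -1.04 (adjusted p = 0.000599 in the authors' deposited table). Asl averaged 65.6 FPKM after TCPOBOP and 112 FPKM after vehicle, a log2 ratio of -0.71 (adjusted p = 0.0167). In males at 27 h Ass1 averaged 77.4 FPKM after TCPOBOP and 110.4 FPKM after vehicle (log2 ratio -0.46, adjusted p = 0.112), and Asl 51.3 FPKM after TCPOBOP and 61.0 FPKM after vehicle (log2 ratio -0.20, adjusted p = 0.747). Neither male value was called, and the difference between the sexes was not tested. Cps1, at the entry to the cycle, went the other way in its means at 27 h, with 90.8 FPKM after TCPOBOP and 77.2 FPKM after vehicle in males and 111 FPKM after TCPOBOP and 89.98 FPKM after vehicle in females, and was called in neither (adjusted p = 0.501 and 0.439). Otc, Nags and Arg1 were called in no TCPOBOP comparison, and over these 4 comparisons the log2 ratio lay between -0.31 and 0.11 for Otc, -0.32 and 0.03 for Nags, and -0.31 and 0.21 for Arg1.

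**Figure D2:**
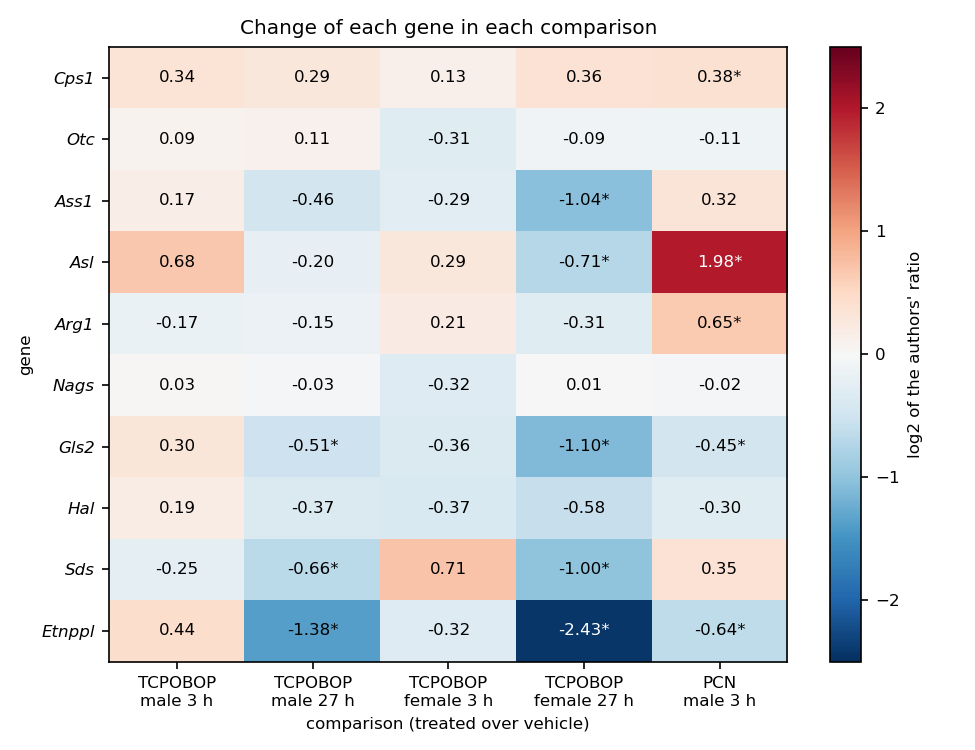
Log2 of the authors' ratio of treated over vehicle for the 10 genes (rows) in the 5 comparisons (columns), with an asterisk at an adjusted p below 0.05. The lowest value is that of Etnppl in females at 27 h (-2.43) and the highest that of Asl after PCN (1.98).

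The starts of Ass1 and Etnppl are shown because both fell in females at 27 h, their levels moved alike over the TCPOBOP set, and of the 7 genes called in any comparison they alone have entries among the promoter sequences at hand. Each is the 300 bases from 250 before the start to 50 after it, from RefSeq in mouse build GRCm38.p6, on the plus strand, at chr2:31470020-31470319 and, for the second of the Etnppl starts, chr3:130617325-130617624. Capitals mark a match of AGGTCA, the half-site letters of nuclear receptor elements, read on the other strand.
Ass1: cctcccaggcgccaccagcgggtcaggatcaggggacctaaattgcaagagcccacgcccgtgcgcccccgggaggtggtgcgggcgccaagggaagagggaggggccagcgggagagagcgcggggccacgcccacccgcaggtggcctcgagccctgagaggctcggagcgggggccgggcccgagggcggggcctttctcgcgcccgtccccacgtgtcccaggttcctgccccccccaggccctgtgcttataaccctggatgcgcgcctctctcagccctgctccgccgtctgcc
Etnppl: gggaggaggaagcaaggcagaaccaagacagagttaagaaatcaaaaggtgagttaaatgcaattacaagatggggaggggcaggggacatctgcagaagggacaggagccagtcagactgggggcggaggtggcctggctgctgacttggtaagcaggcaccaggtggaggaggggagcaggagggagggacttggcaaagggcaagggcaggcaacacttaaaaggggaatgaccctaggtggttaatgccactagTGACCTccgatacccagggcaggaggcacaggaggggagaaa
The match in Etnppl begins at base 259 of the window, and AGGTCA is found on either strand in 16.3% of 32851 promoter windows of this length. The Ass1 window, of 74% G and C, held no match of AGGTCA, of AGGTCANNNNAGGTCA (its direct repeat with 4 letters between, in 0.0152% of windows), of TGACGTCA (the cyclic AMP element, 1.79%), of TATAAA (13.6%) or of CCAAT (37.4%), each searched on both strands. The Etnppl window shown held none of the other 4, and the window at the first Etnppl start, chr3:130617198-130617497, held none of the 5. The window of Nags, called in no comparison, also holds AGGTCA on the other strand, from base 73. A match is a run of letters and no measured binding.

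The vehicle groups of 27 h and 3 h differed for these genes, although the labels give the same hours of collection on both days. Every gene called lowered at 27 h had a higher mean in vehicle livers at 27 h than in vehicle livers at 3 h. The 27 h vehicle group enters both that call and this contrast, so a high mean in it favours both. How many of all genes called lowered rose likewise was not counted. In females Etnppl averaged 9.84 FPKM in the 27 h vehicle group and 1.38 FPKM in the 3 h vehicle group, a quotient of 7.13. For Gls2 these female vehicle means were 129.9 FPKM at 27 h and 36.6 FPKM at 3 h (quotient 3.55), for Sds 290.5 FPKM at 27 h and 96.4 FPKM at 3 h (3.01), and for Ass1 156 FPKM at 27 h and 64.8 FPKM at 3 h (2.40). Less the median of all genes at 1 FPKM or more, 4 of the 10 genes were at least 2-fold higher at 27 h in female vehicle livers, against 6.33% of those genes, and 0 were 2-fold lower. In males 1 of the 10, Etnppl, was at least 2-fold higher, at 9.45 FPKM in the 27 h vehicle group and 3.99 FPKM in the 3 h vehicle group, against 1.17% of genes. Cps1 and Arg1 had lower vehicle means at 27 h in both sexes, Cps1 with 89.98 FPKM at 27 h and 138 FPKM at 3 h in females and 77.2 FPKM at 27 h and 99.4 FPKM at 3 h in males. None of these quotients has a test.

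Of the 5 genes lowered at 27 h in females, 0 had a TCPOBOP mean at 27 h below the vehicle mean of 3 h. The matching share of all genes called lowered was not counted. Gls2 averaged 57.8 FPKM in TCPOBOP females at 27 h and 36.6 FPKM in vehicle females at 3 h, and Sds averaged 139 FPKM in TCPOBOP females at 27 h and 96.4 FPKM in vehicle females at 3 h. Ass1, Asl and Etnppl lay closer to their 3 h vehicle means, with 72.6 FPKM in TCPOBOP females at 27 h and 64.8 FPKM in vehicle females at 3 h for Ass1, 65.6 FPKM after TCPOBOP and 60.2 FPKM after vehicle for Asl, and 1.76 FPKM after TCPOBOP and 1.38 FPKM after vehicle for Etnppl. In males 2 of the 3 lowered genes lay below the 3 h vehicle mean, Sds at 82.6 FPKM after TCPOBOP and 88.7 FPKM after vehicle and Etnppl at 3.49 FPKM after TCPOBOP and 3.99 FPKM after vehicle. Gls2 lay above it, at 32.9 FPKM after TCPOBOP and 27.6 FPKM after vehicle. Each of these falls, save those of Sds and Etnppl in males, is a difference from the 27 h vehicle group that was not seen against the 3 h vehicle group.

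**Figure D3:**
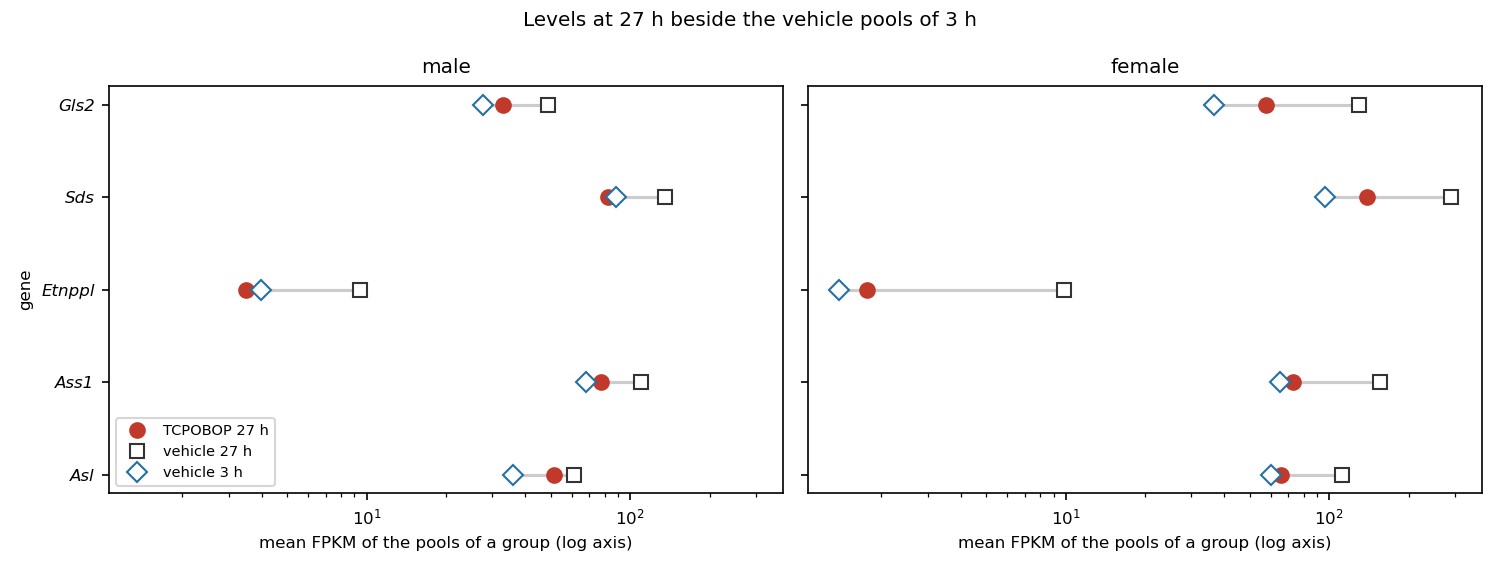
Mean FPKM (log axis) of the 5 genes called lowered at 27 h in at least 1 sex, in TCPOBOP livers at 27 h (filled circles), vehicle livers at 27 h (open squares) and vehicle livers at 3 h (open diamonds). The squares lie to the right of the diamonds for all 5 genes in both sexes, and the female circles lie between them. The genes were picked by a call against the squares, which itself favours squares on the right.

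In vehicle livers, less the median of all genes at 1 FPKM or more, some of the 10 genes differed at least 2-fold between the sexes. At 3 h 1 of the 10 was lower in females and 0 were higher, and at 27 h 2 were higher in females and 0 lower. At 27 h Gls2 averaged 129.9 FPKM in females and 48.8 FPKM in males, and Sds 290.5 FPKM in females and 136 FPKM in males, quotients of 2.66 and 2.14. At 3 h these genes averaged 36.6 FPKM in females and 27.6 FPKM in males for Gls2, and 96.4 FPKM in females and 88.7 FPKM in males for Sds. Etnppl was the other way at 3 h, at 1.38 FPKM in females and 3.99 FPKM in males, and averaged 9.84 FPKM in females and 9.45 FPKM in males at 27 h. Asl had the higher mean in females at both times, at 60.2 FPKM in females and 36.0 FPKM in males at 3 h and 112 FPKM in females and 61.0 FPKM in males at 27 h. Of all genes at 1 FPKM or more, 1.78% were at least 2-fold lower in females and 1.54% higher at 3 h. At 27 h 2.85% were higher in females and 5.16% lower.

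PCN at 3 h raised Asl, Arg1 and Cps1 and lowered Gls2 and Etnppl, in males. Calls were common in that comparison, with 12.9% of genes at 1 FPKM or more raised and 9.41% lowered, and with 28.4% raised and 14.6% lowered at 10 FPKM or more. At the higher level the share raised stands near the members' 3 of 10, though Nags and Etnppl did not reach that level here. The median log2 ratio of the 10 genes was 0.15, against 0.03 over all genes at 1 FPKM or more. Asl averaged 81.0 FPKM in PCN livers and 23.05 FPKM in vehicle livers, 3.96-fold higher (adjusted p = 4.37e-30 in the authors' deposited table), the widest rise of any of the 10 genes in any comparison. Arg1 averaged 107 FPKM in PCN livers and 77.1 FPKM in vehicle livers, 1.57-fold higher (adjusted p = 0.00159). Cps1 averaged 68.3 FPKM in PCN livers and 59.0 FPKM in vehicle livers, a ratio of 1.305 (adjusted p = 0.0280), the largest adjusted p of these 5 calls. The log2 ratio of Cps1 was above 0 in all 5 comparisons, between 0.13 and 0.38, and this was its only call.

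Ass1, the step before Asl, was not called after PCN, with 71.3 FPKM in PCN livers and 64.4 FPKM in vehicle livers (ratio 1.25, adjusted p = 0.116). Otc and Nags were not called either, at 8.36 FPKM in PCN livers and 10.2 FPKM in vehicle livers (adjusted p = 0.966) and 7.81 FPKM in PCN livers and 8.93 FPKM in vehicle livers (adjusted p = 1). Etnppl averaged 1.55 FPKM in PCN livers and 2.72 FPKM in vehicle livers, 1.56-fold lower (adjusted p = 0.0113), and Gls2 averaged 12.7 FPKM in PCN livers and 19.6 FPKM in vehicle livers, 1.37-fold lower (adjusted p = 0.0124 in the authors' deposited table). Hal had 15.1 FPKM in PCN livers and 21.002 FPKM in vehicle livers and missed the threshold (adjusted p = 0.0661). Sds had 60.4 FPKM in PCN livers and 53.3 FPKM in vehicle livers (adjusted p = 0.148). The authors' ratios stood above the quotients of the mean FPKM by a median of 0.17 on the log2 scale in this comparison. In the others they stood above by at most 0.06, save in males at 3 h after TCPOBOP, where they stood 0.01 below. The quotient of mean FPKM had the same direction as each of the 5 calls.

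Asl is thus the member with calls both ways, raised 3.96-fold by PCN in males at 3 h and lowered 1.64-fold by TCPOBOP in females at 27 h. The nearest gene to it in mm9, Crcp, lies 4974 bases away and was raised by PCN as well, at 5.02 FPKM in PCN livers and 2.04 FPKM in vehicle livers (ratio 2.75, adjusted p = 6.13e-19). Gusb, 8674 bases away on the other side, was not called (ratio 1.23, adjusted p = 0.346), nor were Vkorc1l1 and Tpst1, the other genes within 50 kb. Crcp was called in 0 of the 4 TCPOBOP comparisons. Whether reads of Asl and Crcp were shared was not tested. Near Sds, which was not called, PCN raised the overlapping Plbd2 (ratio 1.52, adjusted p = 0.00245), Sdsl, a serine dehydratase-like gene 3783 bases away (ratio 1.58, adjusted p = 0.00148), and Slc8b1 (ratio 1.47, adjusted p = 6.49e-05), all in the authors' deposited table. Gls2 overlaps Spryd4, which was called in 0 of the 5 comparisons. The strand setting of the counting is not given in the sources used here, so reads of overlapping genes cannot be told apart.

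Carriers of ammonia and amino acids, with cofactor enzymes, made a list of 22 genes. Of these, 8 of 16 genes at 1 FPKM or more were lowered and 0 raised in females at 27 h, and 5 of 17 lowered and 0 raised in males, with median log2 ratios of -0.75 and -0.34. Of all genes at that level 6.01% were lowered in females and 7.61% in males. Slc38a3, which carries glutamine, averaged 263 FPKM in TCPOBOP females and 715 FPKM in vehicle females (log2 ratio -1.38, adjusted p = 4.78e-07), and 174 FPKM in TCPOBOP males and 291 FPKM in vehicle males (log2 ratio -0.69, adjusted p = 2.65e-05). At 3 h Slc38a3 averaged 417 FPKM in vehicle females and 355 FPKM in vehicle males. Slc43a1, a carrier of large neutral amino acids, was lowered at 27 h in both sexes too, at 1.70 FPKM after TCPOBOP and 5.05 FPKM after vehicle in females and 0.895 FPKM after TCPOBOP and 2.61 FPKM after vehicle in males. The mitochondrial glutamate carrier Slc25a22 was lowered at 27 h in both sexes, and Slc25a15, which exchanges ornithine and citrulline for the cycle, was called in 0 of the 5 comparisons. At 3 h TCPOBOP lowered 1 of 16 in males, Slc43a1, and lowered 2 of 17 (Car5a and Aqp9) and raised 1, the neutral amino acid carrier Slc38a2, in females. After PCN 3 of 14 were raised (Slc38a2, Oat and Slc7a2) and 1 lowered (Slc38a3). Of all genes at 1 FPKM or more 0.505% were lowered at 3 h after TCPOBOP in males. In females 1.84% were lowered and 2.67% raised at that time, and after PCN 9.41% and 12.9%. Slc38a2 averaged 45.2 FPKM in PCN livers and 17.6 FPKM in vehicle livers (ratio 2.90, adjusted p = 2.34e-17 in the authors' deposited table).

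Among other enzymes of amino acid breakdown, 11 of 53 genes at 1 FPKM or more were lowered and 3 raised in females at 27 h, 6 lowered and 4 raised of 53 in males at 27 h, and 10 raised and 5 lowered of 50 after PCN. These are 20.8% lowered and 5.66% raised, 11.3% and 7.55%, and 10% and 20%. All genes at that level gave 6.01% and 6.98%, 7.61% and 8.71%, and 9.41% and 12.9%. At 10 FPKM or more they gave 12.2% and 9.26%, 13.8% and 11.7%, and 14.6% and 28.4%. At 3 h after TCPOBOP 1 of 52 was lowered in each sex, Kmo in males and Qdpr in females. Of all genes at 1 FPKM or more 0.505% were lowered in males and 1.84% in females. Prodh, which starts proline breakdown, averaged 49.4 FPKM in TCPOBOP females and 141 FPKM in vehicle females at 27 h (log2 ratio -1.45, adjusted p = 3.73e-07), and 24.1 FPKM in TCPOBOP males and 44.0 FPKM in vehicle males (log2 ratio -0.81, adjusted p = 9.59e-05). At 3 h Prodh averaged 48.0 FPKM in vehicle females and 34.2 FPKM in vehicle males. Got1, the cytosolic aspartate aminotransferase, was lowered at 27 h (log2 ratio -1.38 in females and -0.84 in males) and raised after PCN (0.83). Acmsd, of the tryptophan pathway, was raised at 27 h, at 5.51 FPKM after TCPOBOP and 1.38 FPKM after vehicle in females and 3.22 FPKM after TCPOBOP and 1.12 FPKM after vehicle in males. Tat, which starts tyrosine breakdown, averaged 248 FPKM in PCN livers and 93.3 FPKM in vehicle livers (ratio 3.00, adjusted p = 1.25e-19), and Aass, which starts lysine breakdown, averaged 21.1 FPKM in PCN livers and 10.6 FPKM in vehicle livers (ratio 2.25, adjusted p = 1.27e-17), in the authors' deposited table.

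The other uses of arginine and ornithine had few genes. Of the polyamine and creatine list, 2 of 9 were raised and 2 lowered at 27 h in each sex, with the same names in both: Odc1 and Srm, which make putrescine and spermidine, were raised, and Agmat and Gamt were lowered. Odc1 averaged 4.94 FPKM in TCPOBOP females and 2.91 FPKM in vehicle females at 27 h, and 5.03 FPKM in TCPOBOP males and 2.75 FPKM in vehicle males. It was also raised in females at 3 h (log2 ratio 0.74, adjusted p = 0.00211), the sole call of this list at 3 h after TCPOBOP. Gamt, the last enzyme of creatine synthesis, averaged 14.4 FPKM in TCPOBOP females and 35.7 FPKM in vehicle females at 27 h (adjusted p = 1.74e-05), and 3.00 FPKM in PCN livers and 9.11 FPKM in vehicle livers (adjusted p = 4.48e-16). In vehicle females at 3 h Gamt averaged 10.3 FPKM. PCN raised Odc1 and Nos3 of 8 genes and lowered Gamt. The shares over all genes at 1 FPKM or more were 6.98% raised and 6.01% lowered in females at 27 h. They were 8.71% and 7.61% in males at 27 h, and 12.9% and 9.41% after PCN. Arg2, the mitochondrial arginase, had means of 0.0689 to 0.327 FPKM and no call.

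Oat and Glul mark the far end of the lobule, where Oat links ornithine to glutamate. Both are counted in the carrier list as well. Oat averaged 10.8 FPKM in TCPOBOP females and 25.3 FPKM in vehicle females at 27 h (log2 ratio -1.16, adjusted p = 8.13e-05), 8.89 FPKM in TCPOBOP males and 17.03 FPKM in vehicle males (-0.88, adjusted p = 1.19e-06), and 15.7 FPKM in PCN livers and 9.76 FPKM in vehicle livers (0.85, adjusted p = 1.24e-07). Glul was lowered in males at 27 h, at 20.6 FPKM after TCPOBOP and 29.9 FPKM after vehicle (adjusted p = 0.00849), and in females averaged 21.3 FPKM after TCPOBOP and 32.8 FPKM after vehicle without a call (adjusted p = 0.168). Of 13 other periportal genes 5 were lowered and 2 raised in females at 27 h, and of 15 pericentral genes 3 were lowered and 3 raised. In males at 27 h the counts were 3 lowered and 3 raised of 13 periportal genes, and 4 lowered and 3 raised of 14 pericentral genes. The lowered periportal genes included Pck1 and Fbp1 of gluconeogenesis, with Pck1 at 68.9 FPKM after TCPOBOP and 174 FPKM after vehicle in females (adjusted p = 0.000120), while Sult5a1 was raised in all 5 comparisons. At 3 h after TCPOBOP 1 periportal gene was raised and 0 lowered in males, while in females 3 were lowered and 2 raised. Of the pericentral genes at that time, TCPOBOP raised 3 and lowered 2 of 14 in males, and lowered 4 and raised 2 of 15 in females. After PCN they were 3 raised and 2 lowered of 13 periportal genes and 2 raised and 3 lowered of 12 pericentral genes. The shares over all genes at 1 FPKM or more were 6.01% lowered and 6.98% raised in females at 27 h, and 7.61% and 8.71% in males. At 3 h after TCPOBOP they were 0.505% and 1.33% in males and 1.84% and 2.67% in females, and after PCN 9.41% and 12.9%.

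**Figure D4:**
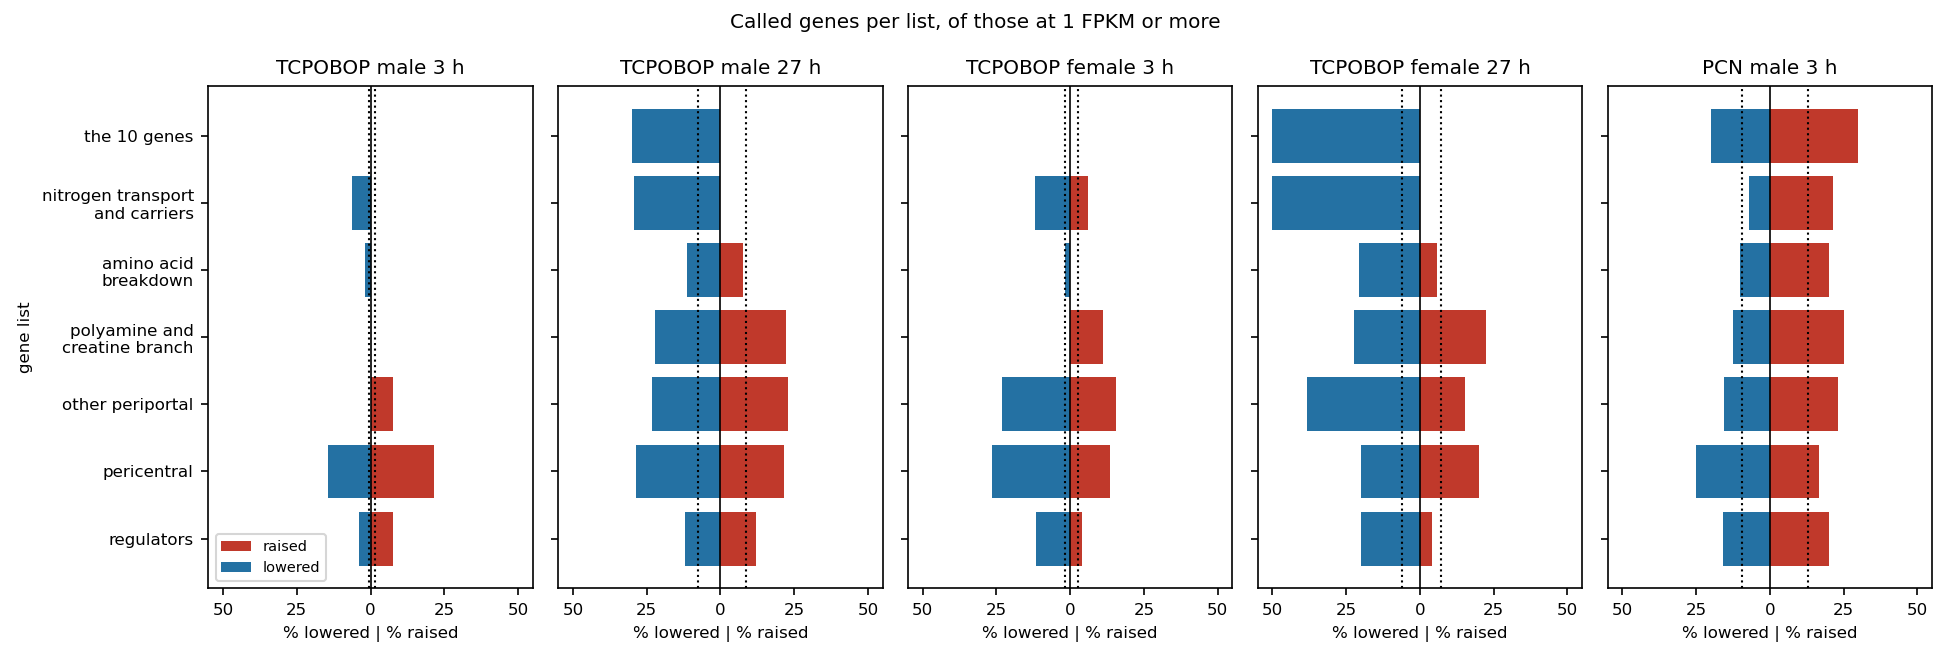
Share of genes called lowered (left of the zero line) and raised (right of it), in percent of the genes at 1 FPKM or more, for the 10 genes and 6 related lists in the 5 comparisons. Dotted lines give the share of all genes at that level, which was 6.01% lowered in females at 27 h, where the 10 genes and the carriers both reached 50%. At 10 FPKM or more that share was 12.2%. The lists overlap: Oat and Glul are in the carrier and pericentral lists, and Tat is in the breakdown and periportal lists.

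Regulators of amino acid breakdown were measured alongside. Of 25 such genes at 1 FPKM or more, 5 were lowered and 1 raised in females at 27 h, 3 lowered and 3 raised in males at 27 h, and 5 raised and 4 lowered after PCN. At 3 h after TCPOBOP 2 of 26 were raised and 1 lowered in males, while in females 3 of 26 were lowered and 1 raised. All genes at 1 FPKM or more gave 6.01% lowered and 6.98% raised in females at 27 h, and 7.61% and 8.71% in males. At 3 h after TCPOBOP these shares were 0.505% and 1.33% in males and 1.84% and 2.67% in females, and after PCN 9.41% and 12.9%. Foxa1, a transcription factor of liver development and metabolism, was raised at 27 h in both sexes (log2 ratio 1.08 in females and 1.01 in males), and Nr1i3, which encodes CAR itself, was lowered (-0.93 in females and -0.68 in males). Cebpa, whose protein is known to drive urea cycle genes in mouse liver, averaged 14.7 FPKM in TCPOBOP females and 26.8 FPKM in vehicle females at 27 h (adjusted p = 0.00293) and was also lowered in females at 3 h (log2 ratio -0.86) and after PCN (-0.66), in the authors' deposited table. In males it was not called at 3 h or 27 h after TCPOBOP. After PCN Cebpb and Cebpd were raised, Cebpb to 37.1 FPKM in PCN livers, against 16.1 FPKM in vehicle livers, and Cebpd to 4.46 FPKM in PCN livers, against 1.64 FPKM in vehicle livers. Irs2, an insulin receptor substrate, averaged 3.68 FPKM in PCN livers and 1.29 FPKM in vehicle livers (ratio 3.21, adjusted p = 1.20e-16).

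Markers of other liver cells were counted alongside. In females at 27 h, 0 of 10 Kupffer cell markers, 0 of 8 sinusoidal endothelial markers, 0 of 7 stellate cell markers and 0 of 1 cholangiocyte marker at 1 FPKM or more were called, and the Kupffer list summed to 90.4 FPKM after TCPOBOP and 123.5 FPKM after vehicle. In males at 27 h 3 of 8 endothelial markers and 1 of 7 stellate markers were raised, with the endothelial list at 144 FPKM after TCPOBOP and 137 FPKM after vehicle and the stellate list at 59.6 FPKM after TCPOBOP and 48.7 FPKM after vehicle. After PCN 3 of 8 endothelial markers were raised and 1 of 8 Kupffer markers lowered. The 7 hepatocyte markers summed to 2175 FPKM in TCPOBOP males and 2267 FPKM in vehicle males at 27 h, with Serpina1a raised and Fgb lowered. Fgb, a fibrinogen chain, averaged 497 FPKM in TCPOBOP males and 737 FPKM in vehicle males (log2 ratio -0.51, adjusted p = 0.00690 in the authors' deposited table). These 7 markers summed to 1446 FPKM in TCPOBOP females and 1655 FPKM in vehicle females at 27 h, with 1 raised, and to 2639 FPKM in PCN livers and 2237 FPKM in vehicle livers, with 4 raised (Apoa1, Serpina1a, Fgb and Hnf4a). At 3 h after TCPOBOP the calls of these 5 lists were Lyve1 and Serpina1a, both raised in females, and 0 in males. Of the 6 cholangiocyte markers at most 2 reached 1 FPKM, and 0 markers of the 5 lists were listed at 0 in a vehicle group. For these marker counts, the shares over all genes at 1 FPKM or more were 6.01% lowered and 6.98% raised in females at 27 h. They were 7.61% and 8.71% in males at 27 h, and 9.41% and 12.9% after PCN. At 3 h after TCPOBOP they were 0.505% and 1.33% in males and 1.84% and 2.67% in females. The part of cell make-up in the members' values was not tested.

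Over the 8 group means of the TCPOBOP set some of the 10 genes moved alike. This is given as a description, since there are only 8 means and no value per pool. Pearson's r of log2(FPKM + 0.1) was 0.87 between Ass1 and Etnppl, 0.86 between Ass1 and Gls2 and 0.84 between Asl and Sds, and -0.79 between Cps1 and Etnppl. Among 10073 genes with a mean of at least 1 FPKM, those most like Gls2 were Alkbh3, Foxp4 and Tmem63a (r = 0.99 each), and those most like Etnppl were Lrig3, Txndc15 and Hebp1 (0.98, 0.98 and 0.97). Xpc, Acp6 and Phf20 were most like Ass1 (0.98 each), and Adamts10, Zfp58 and Hcls1 most like Asl (0.97, 0.96 and 0.96). For Sds they were Batf3, Zfp954 and Med10 (0.97 each), for Cps1 Tbrg4, Trim11 and Ctu2 (0.96, 0.95 and 0.94), and for Arg1 Eif6, Hp and Angptl4 (0.98, 0.97 and 0.97). For Otc they were Mzt2, Ebp and Klhl7 (0.98, 0.97 and 0.96), for Nags Zbtb7b, Marc1 and Sat2 (0.99, 0.98 and 0.98), and for Hal Slc25a34, Ogdh and Zswim4 (0.98, 0.98 and 0.97). None of the 3 nearest genes of any member was itself a member.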

How the data were processed

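Poly(A) RNA of mouse liver nuclei was sequenced by the authors. Per the submitters' processing notes, reads were mapped to mm9 with TopHat2, counted with featureCounts 1.4.6-p5 or HTSeq 0.6.1p1, and edgeR made the comparisons. Which counter served which library, the strand setting and the filters are not given in the sources used here, and the labels call the TCPOBOP libraries stranded and the PCN libraries unstranded while naming a directional kit for all. The authors deposited, for 24197 genes and 5 comparisons, a treated-to-vehicle ratio, the same as a signed fold change (a score, following the ratio within 0.01%), the mean FPKM of each group and an adjusted p-value. FPKM, as deposited, is scaled to gene length and mapped fragments, and its spread between pools is not in the table used here. No column of another sample was present (0).

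Where pools could be had, a fit over all genes was planned; with group means alone, the authors' adjusted p at 0.05 and the sign of their ratio were used, which was the second course of the plan. No count adjusted over a list was made. The 10 genes and all gene lists were chosen with earlier results of these data known. Named genes were all members, up to 3 genes of each list per comparison with the smallest adjusted p below 0.05 at 1 FPKM or more, Glul, Arg2 and Oat, and the 3 genes with the highest Pearson r per member; Slc25a15, Slc25a22, Alb, Cyp2b10, the neighbours within 50 kb and genes given as the whole of a short count were named beyond that rule, after their values were seen. Of 197 listed symbols 195 matched. For levels across groups, 0.1 was added to each mean FPKM and the log2 quotient was centred on the median of genes at 1 FPKM or more. Depth came from the FPKM steps of 3335 genes below 1500 bp; precision per pool cannot be given beyond the counting step. Promoter letters are RefSeq's for GRCm38.p6 and no coordinate was moved between builds. The 5 steps were tested on simulated data. Python 3.11.15, numpy 2.4.6, pandas 2.3.3 and matplotlib 3.10.9 were used. Alternatives tried were adjusted p thresholds of 0.01 and 0.1, a fold of 1.5, quotients of mean FPKM with 0.1 or 1 added, centring, vehicle livers of the other time as the comparator, and other level filters.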

Additional observations from a re-analysis of the deposited data

How the results depend on the processing

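No paired analysis was possible because the authors' deposited table gives 1 mean per group and no value per pool, and leaving out single pools was not run for the same reason. Set against vehicle livers of the other time, with no test, 6 called falls turned to log2 quotients above 0: Gls2 in males at 27 h (0.23) and, in females at 27 h, Ass1 (0.065), Asl (0.027), Gls2 (0.56), Sds (0.43) and Etnppl (0.23). How many of all called falls turned was not counted. The members' median in that setting was -0.027 in males at 3 h, -0.10 in males at 27 h, -0.55 in females at 3 h and 0.049 in females at 27 h. After PCN, the count of called members was 2, both raised, at an adjusted p below 0.01, and 3, with 2 raised and 1 lowered, at a fold of at least 1.5, and the members' median, 0.15 in the authors' ratios, was -0.022 as a quotient of mean FPKM with 0.1 added and -0.014 with 1 added. The median over all genes moved with it, at 0.03 in the authors' ratios and -0.14 as a quotient. At an adjusted p below 0.01 the calls at 27 h were 4 in females, without Asl, and 2 in males, without Sds. At a fold of at least 1.5 they were 5 in females and 2 in males, without Gls2, which was then lowered in females only. At an adjusted p below 0.1 the sole added call of a member was Hal, lowered after PCN (adjusted p = 0.0661, edgeR). The other-time vehicle moved 33 of 40 single values by over 0.1 on the log2 scale and left 7 within it; 21 changed sign, the 6 calls above and 15 values that were not called, and the cause was not tested. Centring left all 50 within 0.1 with no change of sign. Quotients of mean FPKM moved 10 of 50 by over 0.1 with 0.1 added and 12 with 1 added, and turned 1, the uncalled value of Nags in females at 27 h (0.011 as the authors' ratio, -0.052 and -0.049 as quotients with 0.1 and 1 added), and no called one. Over all 24197 genes the shares called were 0.868% and 8.46% in males at 3 h and 27 h, 2.10% and 6.35% in females at 3 h and 27 h, and 9.78% after PCN; at 10 FPKM or more, a level added after seeing the data, they were 4.20%, 25.4%, 10.2%, 21.4% and 43.0% in the same order. Depth limits these levels little, since the lowest mean of a member was 1.07 FPKM and 1 read in 1 kb was worth at most 0.0525 FPKM.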
